A study of Drosophila melanogaster with 9 samples.

Results

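The Cpr genes encode cuticle proteins with a Rebers and Riddiford chitin-binding domain, and their expression was examined in the blood cells of *Drosophila melanogaster*. Members were chosen by their symbol, with no measured value in the rule, as every gene of the deposited table whose name begins with Cpr and a digit, which gave 70 of 17490 genes, and the domain itself was not checked on protein sequence. The samples were adult hemocytes (AD), flushed with PBS from 4- to 5-day-old *w1118* females, larval peripheral hemocytes (PH), released from wandering third-instar *w1118* larvae through the peeled dorsal cuticle, and the anterior lobes of lymph glands (LG) dissected from third-instar larvae of the same genotype. Each group had 3 biological replicates, each replicate was a pool of animals, and the methods describe no sorting, so other cells of the preparation could enter the RNA. For the peripheral larval preparation, the methods state that most cells carried a hemocyte reporter under the microscope and that fat body cells were not seen. No group carried a transgene or a treatment. The family was proposed with results from these samples in view, so the values of its members are given as a description, with no p-value for a member.

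Insect cuticle is a matrix of chitin fibres and proteins that is laid down at the apical surface of epidermis, trachea, foregut and hindgut. Most of its structural proteins carry the Rebers and Riddiford domain, through which they bind chitin, and in *Drosophila* most of these are named Cpr after the cytological band of the gene, with older names such as Lcp for proteins first isolated from larval cuticle. Individual members are typically made in short pulses around a moult and in particular regions of the epidermis. Blood cells do not lay down cuticle, and the best known products of hemocytes for extracellular matrices are basement membrane components.

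Expression is given as RPKM (reads per kilobase of exon and library size), so that levels can be compared between genes of different length. Reads behind the values were recovered by multiplying each RPKM value by the annotated exon length of the gene, and they came to between 2920664 and 3201824 in an AD library, between 4999411 and 6534561 in a PH library and between 2745573 and 6779942 in an LG library. Expressed here means a value over RPKM 1 in each of the 3 replicates of a group. Where a gene had 0 reads, the limit given is the RPKM of 3 reads in the shallowest library of the group, and limits and intervals cover counting error only. All 13 genes of a hemocyte marker list (among them *srp*, *Hml* and *Pxn*) were expressed in every group, with summed levels of 7011 to 7869 RPKM in AD, 3744 to 5295 RPKM in PH and 2837 to 3507 RPKM in LG. One library stood apart, LG replicate 1, in which markers of the ring gland, an endocrine organ next to the lymph gland, summed to 322 RPKM against 7.25 and 1.99 RPKM in the other LG samples.

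Few Cpr genes were expressed in any of the groups. In AD, 4 of 70 members passed RPKM 1 in all samples (5.71%, against 38.9% of all genes), in PH 2 members (2.86%, against 35.9%) and in LG 3 members (4.29%, against 35.6%). These were 7 different genes in all: *Cpr49Ab*, *Cpr49Ae*, *Cpr65Au* and *Cpr100A* in AD, *Cpr49Ac* and *Cpr66Cb* in both PH and LG, and *Cpr65Aw* in LG. The other 63 members were not expressed in any group by this threshold. At least 1 read was found for 31 members in AD (44.3%, against 62.2% of all genes), 24 in PH (34.3%, against 60.7%) and 31 in LG (44.3%, against 61.6%). Cpr transcripts are short, with a median exon length of 862.5 bp against 1414 bp over all genes with a known length, so a given RPKM stands for fewer reads in a Cpr gene than in a typical gene.

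**Figure D1:**
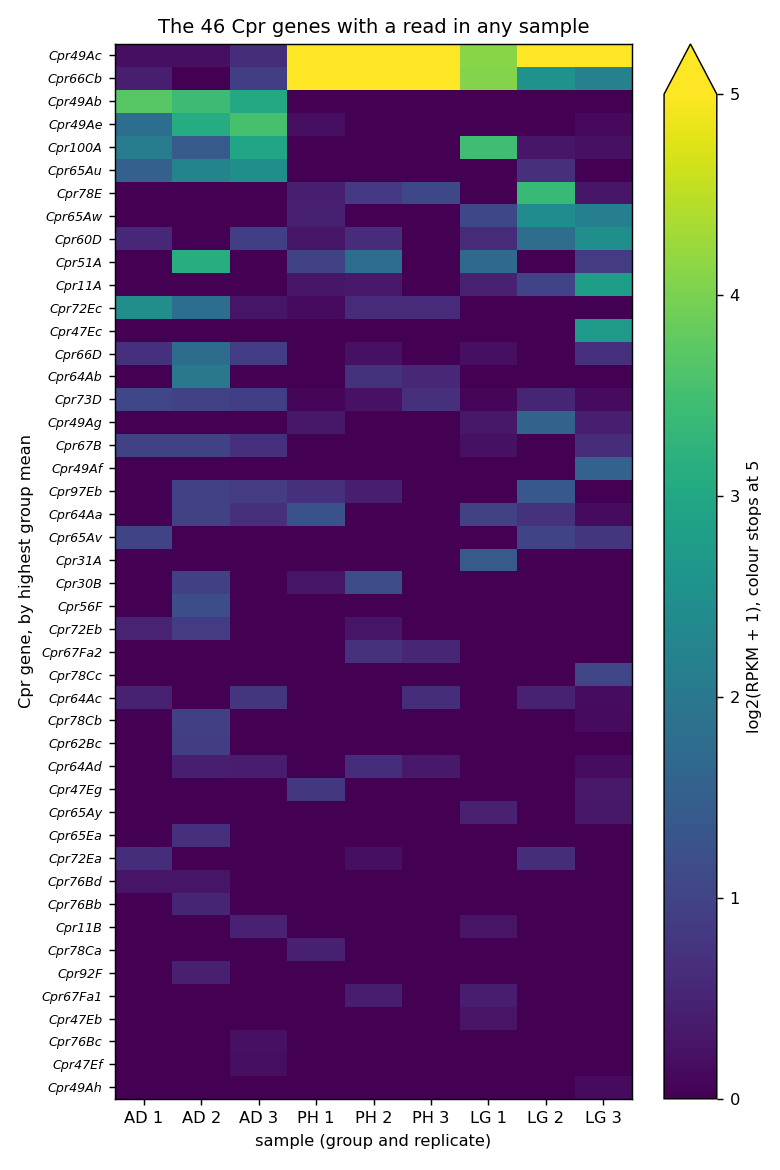
Level of the 46 Cpr genes with a read in any sample, as log2(RPKM + 1) on a colour scale that stops at 5, with the genes as rows ordered by their highest group mean and the 9 samples as columns. *Cpr49Ac* and *Cpr66Cb* fill the PH columns and reach into LG, *Cpr49Ab* and *Cpr49Ae* appear in the AD columns, and most other rows are near 0.

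The reads of the family were very unevenly spread. Of 27780 reads on Cpr genes in the 9 samples, 26096 (93.9%) lay on *Cpr49Ac* and 830 (2.99%) on *Cpr66Cb*, and the other 68 members shared 854 reads. Only 1 further gene, *Cpr100A*, had more than 100 reads. Summed over the family, RPKM was 30.7, 49.1 and 37.2 in the AD samples, 934, 728 and 616 in the PH samples and 50.8, 153 and 66.8 in the LG samples. The AD samples lay below every PH and LG sample, and the PH samples lay above all others. *Cpr49Ac* made up 0.318 to 1.53% of this sum in AD, 92.7 to 94.1% in PH and 32.1, 80.7 and 53.9% in the LG replicates. Without *Cpr49Ac*, the sums averaged 38.7 ± 9.38 RPKM over the AD, 49.4 ± 5.30 RPKM over the PH and 31.6 ± 2.55 RPKM over the LG samples (SD, n = 3 each). Most of the gap between the group sums thus came from 1 gene. The sums that remained differed in their make-up, since *Cpr66Cb* averaged 43.0 RPKM in PH, 8.07 RPKM in LG and 0.412 RPKM in AD. Their similar size therefore does not mean that the other members were alike in the groups.

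**Figure D2:**
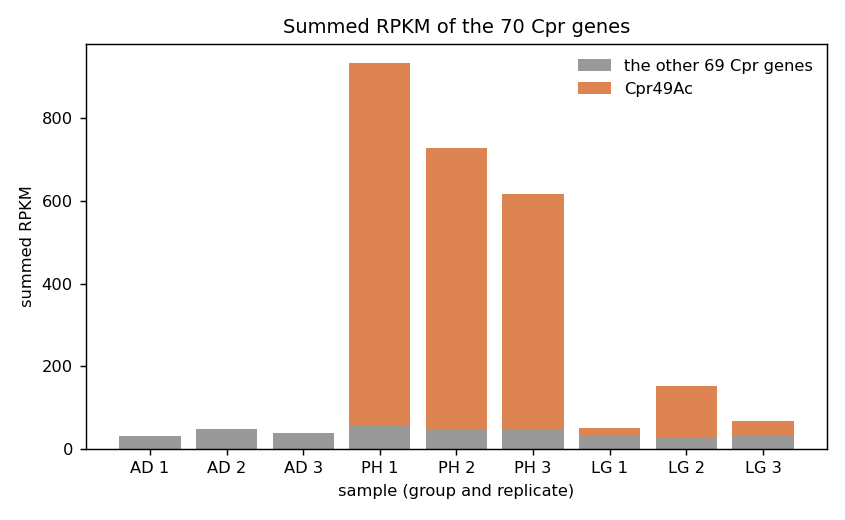
Summed RPKM of the 70 Cpr genes in each sample, with *Cpr49Ac* in orange and the other 69 genes in grey. The grey parts lie between 29.6 and 55.2 RPKM in all 9 samples, and the orange part makes up 92.7 to 94.1% of the PH bars.

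*Cpr49Ac* (FBgn0033725, chromosome 2R from 12386666 to 12390057 in dm6 coordinates, plus strand, 6 annotated exons) was by far the most abundant member in the larval groups. Its level was 0.156, 0.156 and 0.571 RPKM in the AD samples, 879, 680 and 572 RPKM in the PH samples and 16.3, 124 and 36.0 RPKM in the LG samples. The groups did not overlap, with every PH sample above every LG sample and every LG sample above every AD sample. In PH the gene ranked 57 of all 17490 genes by mean RPKM, in LG it ranked 535, and in AD it ranked 9268. These levels rested on 6 AD, 24403 PH and 1687 LG reads. The mean in PH was 2410 times that in AD and 12.1 times that in LG, and the mean in LG was 199 times that in AD. On the log2(RPKM + 1) scale, on which the 1 added to each value understates the change of low genes, the difference was -9.09 for AD against PH (SE 0.20), -5.07 for AD against LG (SE 0.63) and 4.02 for PH against LG (SE 0.61). In bulk samples, fewer cells that make a transcript and less transcript per cell cannot be told apart.

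Within the larval groups, the level of *Cpr49Ac* varied between replicates. In PH it was highest in replicate 1 and lowest in replicate 3, and the summed level of 7 larval fat body markers had the same order, with 2002, 1818 and 1434 RPKM. Only 2 of these markers had that order themselves, *Fbp1* (1063, 752 and 361 RPKM) and *Lsp1beta* (520.2, 499.95 and 446 RPKM). *Lsp1alpha*, *Lsp1gamma* and *Fbp2* were lowest in replicate 1 and highest in replicate 3, and *Lsp2* and *Lpin* were highest in replicate 2. In LG it was highest in replicate 2 and lowest in replicate 1, whereas the fat body sum was 181 RPKM in replicate 1 and 115 and 111 RPKM in replicates 2 and 3. The log2 difference between PH and LG was 3.37 without LG replicate 1, 4.79 without LG replicate 2 and 3.91 without LG replicate 3, and it was not called in the last of these. A part of other cells in these levels was not tested.

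*Cpr66Cb* (FBgn0035875, chromosome 3L from 8336672 to 8338595, plus strand, 3 exons) had the same order of groups at a lower level. It had 0.331, 0 and 0.906 RPKM in the AD samples, 49.2, 39.0 and 40.7 RPKM in the PH samples and 15.7, 4.95 and 3.54 RPKM in the LG samples. Again the groups did not overlap, and the PH replicates differed little from one another (43.0 ± 5.44 RPKM, SD, n = 3). The gene ranked 829 in PH and 3355 in LG, from 685 and 141 reads, and AD held 4 reads. Its mean in PH was 104 times that in AD and 5.32 times that in LG. The log2 difference was -5.00 for AD against PH (SE 0.26), -2.49 for AD against LG (SE 0.50) and 2.51 for PH against LG (SE 0.44). Unlike *Cpr49Ac*, it was highest in LG replicate 1 among the LG samples, the replicate with the ring gland markers, and without that replicate the difference between PH and LG was 3.08.

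Among the members expressed in AD, *Cpr49Ab* was the highest. *Cpr49Ab* (FBgn0050042, chromosome 2R from 12378440 to 12379396, plus strand) had 12.0, 9.71 and 7.09 RPKM in the AD samples and 0 reads in all 6 larval samples. Its 76 AD reads place it at rank 3219 in AD. Its mean was 10.5 times the limit in PH (0.915 RPKM) and 8.28 times the limit in LG (1.16 RPKM). The log2 difference was 3.38 against PH (SE 0.24) and 3.38 against LG (SE 0.26), both set by the 1 added to a value of 0.

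*Cpr49Ae* (FBgn0033728, chromosome 2R from 12402216 to 12405108, plus strand) had 2.51, 7.53 and 10.7 RPKM in the AD samples, 0.133, 0 and 0 RPKM in the PH samples and 0, 0 and 0.093 RPKM in the LG samples. Its 78 AD reads stood against 1 read in PH and 1 read in LG. Per library total implied by the RPKM values, reads were 131 times as frequent in AD as in PH (95% interval 22.8 to 5241). They were 150 times as frequent as in LG (26.2 to 6015), and the width of the intervals reflects the single larval reads. All AD samples were above all larval samples, while the AD replicates themselves spread widely.

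*Cpr65Au* (FBgn0042119, chromosome 3L from 6131242 to 6132109, minus strand) rested on fewer reads. It had 1.89, 3.77 and 4.60 RPKM in the AD samples, 0 in all PH samples and 0, 0.627 and 0 RPKM in the LG samples, from 17 AD reads, 0 PH reads and 1 LG read. The AD mean was 2.31 times the PH limit, and the ratio of read rates between AD and LG was 32.8 (95% interval 5.14 to 1370). An antisense RNA, *asRNA:CR46005*, covers 491 bp of its exons on the other strand, and whether the counting used the strand is not given in the sources used here. That antisense gene was listed at 0 in every AD sample.

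*Cpr100A* (FBgn0039805, chromosome 3R from 30867521 to 30869184, plus strand) was uneven in LG. Its level was 3.36, 1.68 and 6.80 RPKM in the AD samples, 0 in all PH samples and 10.1, 0.239 and 0.161 RPKM in the LG samples. The AD mean was 6.98 times the limit in PH. AD and LG overlapped, since 83 of the 86 LG reads came from replicate 1, the library with the ring gland markers. The log2 difference between AD and LG was 0.84 (SE 0.86) with that library and 1.91 without it.

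*Cpr65Aw* (FBgn0052404, chromosome 3L from 6141903 to 6142413, minus strand) was the member expressed in LG alone. It had 0 reads in AD, 0.350, 0 and 0 RPKM in the PH samples and 1.12, 4.40 and 3.44 RPKM in the LG samples. The 23 LG reads stood against 1 read in PH, a ratio of read rates of 20.04 (95% interval 3.25 to 826). The limit in AD was 2.21 RPKM. The LG mean of 2.99 RPKM was 1.35 times that limit, and LG replicate 1 lay below it.

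**Figure D3:**
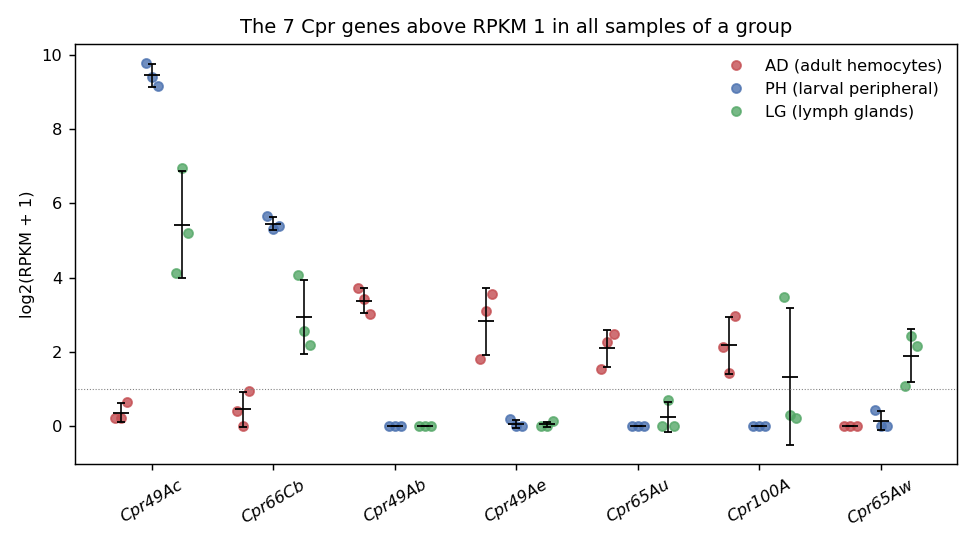
Level of the 7 Cpr genes expressed in a group, as log2(RPKM + 1), with a point for each sample and bars for the mean and SD of the 3 replicates in AD, PH and LG. The dotted line marks RPKM 1. *Cpr49Ac* and *Cpr66Cb* are high in PH, intermediate in LG and near 0 in AD, while *Cpr49Ab*, *Cpr49Ae* and *Cpr65Au* are above the line in AD alone.

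Pairs of groups were compared with limma over the genes that exceeded RPKM 1 in 3 or more of the 6 libraries, and calls required both an adjusted p-value under 0.01 and a log2 difference over 1 in size. For AD against PH, 6 members passed the filter on low values, 4 of them were called higher in AD (*Cpr49Ab*, *Cpr49Ae*, *Cpr65Au*, *Cpr100A*) and 2 lower (*Cpr49Ac*, *Cpr66Cb*). Over all genes tested in that comparison, 37% were called, 23% higher and 13.9% lower in AD. For AD against LG, 7 members passed the filter, 3 were called higher in AD (*Cpr49Ab*, *Cpr49Ae*, *Cpr65Au*) and 3 lower (*Cpr49Ac*, *Cpr65Aw*, *Cpr66Cb*), where 30.4% of all genes tested were called, 20% higher and 10.4% lower. For PH against LG, 3 members passed the filter and 2 were called, both higher in PH (*Cpr49Ac*, *Cpr66Cb*), where 14.2% of all genes tested were called, 7.63% higher and 6.57% lower. A member near 0 in one group could pass the filter only by being above RPKM 1 in all samples of the other, so these counts are a description, and the 2 comparisons of AD share the AD samples. Without any single AD replicate, the members high in AD alone could not pass the filter, and the calls numbered 2 against PH and 1 against LG. Against LG, *Cpr65Aw* and *Cpr66Cb* were then still tested, with differences of -1.89 and of -2.73 to -2.27, and missed the threshold of the adjusted p-value. For PH against LG, limma called 0 members without PH replicate 1, 2 or 3 or without LG replicate 3, with 2 to 3 members at an unadjusted p below 0.05. For AD against LG, 2 to 3 members were called with an LG replicate left out.

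Counted over all 70 members without a filter, 7 had all AD values above all PH values (10%, against 18.4% of all genes) and 3 had all AD values below them (4.29%, against 14.5%). Between AD and LG, 6 members lay wholly higher in AD (8.57%, against 16.8%) and 5 wholly lower (7.14%, against 12.5%). Between PH and LG, 3 lay wholly higher in PH (4.29%, against 11.4%) and 4 wholly lower (5.71%, against 11.2%). These shares were all below those of all genes. In the family, 24 members had 0 reads throughout, and 65.7% of members had a read in any sample, against 71.4% of all genes.

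The genes of the family lie in clusters. Of the 70 members, 35 are on chromosome arm 3L, 21 on 2R, 5 on 2L, 5 on 3R and 4 on X, and 49 share their cytological band with another member, in 12 bands. Members with reads numbered 26 on 3L, 13 on 2R, 2 on 2L, 3 on 3R and 2 on X. Band 49A, on 2R from 12376626 to 12415170, holds 8 members, among them the most abundant Cpr gene of the larval groups and both leading Cpr genes of AD. In their order along the arm, *Cpr49Aa* had 0 reads over the 9 samples, *Cpr49Ab* 76, *Cpr49Ac* 26096, *Cpr49Ad* 0, *Cpr49Ae* 80, *Cpr49Af* 19, *Cpr49Ag* 8 and *Cpr49Ah* 1. *Cpr49Ac* thus lies between *Cpr49Ab* and *Cpr49Ae*, which were higher in AD than in both larval groups, and *Cpr49Ad*, the member after *Cpr49Ac*, had no read in PH, where *Cpr49Ac* had 24403. Of the others in the band, *Cpr49Ag* had 0 RPKM in all AD samples, 0.242, 0 and 0 RPKM in PH and 0.258, 2.03 and 0.341 RPKM in LG.

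**Figure D4:**
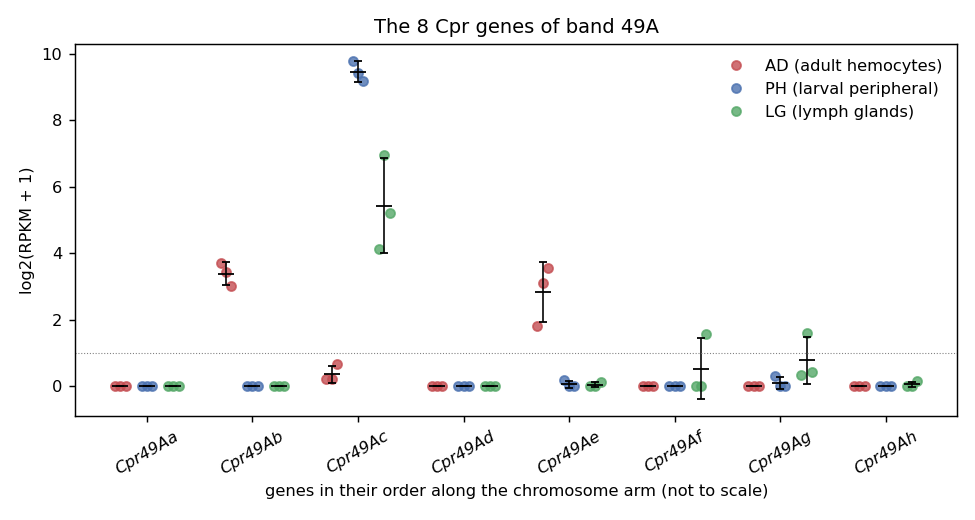
Level of the 8 Cpr genes of band 49A, as log2(RPKM + 1), in their order along the arm and not to scale, with a point for each sample and bars for the mean and SD of the 3 replicates in AD, PH and LG. The dotted line marks RPKM 1. *Cpr49Ab* and *Cpr49Ae* are high in AD, *Cpr49Ac* between them is high in PH and LG, and *Cpr49Aa* and *Cpr49Ad* are at 0 in all 9 samples.

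No other band with several members reached such levels. Band 65A on 3L, from 6131242 to 6161589, holds 7 members with 52 reads in all, and its highest group means were those of *Cpr65Au* in AD (3.42 RPKM) and *Cpr65Aw* in LG (2.99 RPKM). Its *Cpr65Av*, which lies between them, had 1.03, 0 and 0 RPKM in the AD samples, 0 in all PH samples and 0, 1.03 and 0.690 RPKM in the LG samples. Band 47E on 2R holds 7 members, 4 of them with reads, and 37 of its 42 reads came from *Cpr47Ec* in LG replicate 3. In band 64A, all 4 members had reads, 45 in all, and no group mean was above 0.999 RPKM. In band 72E, 40 of 49 reads lay on *Cpr72Ec*.

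Several members exceeded RPKM 1 in some samples of a group without doing so in all. *Cpr72Ec* had 4.58, 2.51 and 0.209 RPKM in the AD samples, 0.109, 0.502 and 0.539 RPKM in the PH samples and 0 in all LG samples. *Cpr51A*, one of the 5 highest members of AD by its mean, had all 15 of its AD reads in replicate 2, at 0, 7.62 and 0 RPKM, with 0.967, 2.51 and 0 RPKM in the PH samples and 2.32, 0 and 0.850 RPKM in the LG samples. *Cpr51A* therefore varied more between replicates than between groups. *Cpr78E* had 0 reads in AD, 0.340, 0.785 and 1.12 RPKM in the PH samples and 0, 9.27 and 0.239 RPKM in the LG samples, with 13 of its 14 LG reads in replicate 2. The highest values among the 63 members that were not expressed were thus single libraries, *Cpr51A* at 7.62 RPKM in AD, *Cpr51A* at 2.51 RPKM in PH and *Cpr78E* at 9.27 RPKM in LG. *Cpr30B*, the fifth member of PH by its mean, had 0, 0.930 and 0 RPKM in the AD samples, 0.221, 1.28 and 0 RPKM in the PH samples and 0 in all LG samples.

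Further members had low levels that favoured a group, and they are named here after their values were seen. *Cpr73D* had 1.09, 0.982 and 0.898 RPKM in the AD samples, 0.052, 0.180 and 0.600 RPKM in the PH samples and 0.055, 0.436 and 0.110 RPKM in the LG samples. It lay just under the threshold in AD with little spread, and besides *Cpr49Ac* it was the only member with reads in all 9 samples. Its exons overlap those of *Ogdh*, a subunit of the oxoglutarate dehydrogenase complex on the opposite strand, by 294 bp, and *Ogdh* averaged 96.7 RPKM in the AD, 13.4 RPKM in the PH and 11.8 RPKM in the LG samples, so reads of the 2 genes cannot be told apart without strand. *Cpr67B* had 0.984, 0.982 and 0.598 RPKM in the AD samples, 0 in all PH samples and 0.166, 0 and 0.548 RPKM in the LG samples, from 8, 0 and 6 reads in the groups. In LG, *Cpr11A* had 0.379, 0.996 and 5.93 RPKM, with 0 reads in AD and 0.237, 0.274 and 0 RPKM in the PH samples. *Cpr60D* had 0.496, 0 and 0.906 RPKM in the AD samples, 0.236, 0.545 and 0 RPKM in the PH samples and 0.502, 2.47 and 4.65 RPKM in the LG samples. Both were highest in LG replicate 3, the deepest library.

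The rest of the family was at the edge of detection. Of the 46 members with reads, 14 had 1 to 3 reads over all 9 samples, and 14 had reads in a single library. Those single libraries were AD replicate 2 for 5 members, LG replicate 3 for 4, AD replicate 3 for 2, LG replicate 1 for 2 and PH replicate 1 for 1. Of these 14 members, 3 had 10 or more reads, all in LG, namely *Cpr47Ec* (37 reads, 5.51 RPKM) and *Cpr49Af* (19 reads, 1.99 RPKM) in replicate 3 and *Cpr31A* (12 reads, 1.64 RPKM) in replicate 1. For these genes a group level cannot be given beyond the library that holds the reads. Reads in 5 or more libraries were found for 16 members.

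A read in any sample was found for 65.7% of the members, against 71.4% of all genes. For 24 members, no read was recovered in any of the 9 samples. These were *Cpr5C*, *Cpr12A*, *Cpr23B*, *Cpr30F*, *Cpr35B*, *Cpr47Ea*, *Cpr47Ed*, *Cpr47Ee*, *Cpr49Aa*, *Cpr49Ad*, *Cpr50Ca*, *Cpr50Cb*, *Cpr57A*, *Cpr62Ba*, *Cpr62Bb*, *Cpr65Ax1*, *Cpr65Ax2*, *Cpr65Az*, *Cpr65Eb*, *Cpr65Ec*, *Cpr67Fb*, *Cpr76Ba*, *Cpr92A* and *Cpr97Ea*. They were not detectable at this depth, with limits between 0.290 and 2.55 RPKM in AD, 0.227 and 2.0 RPKM in PH and 0.289 and 2.55 RPKM in LG, depending on the length of the gene. Their median exon length was 828 bp, against 925.5 bp for the members with reads. *Cpr65Ax1* and *Cpr65Ax2* are near-identical copies, as are *Cpr67Fa1* and *Cpr67Fa2*, and reads that fit both copies may have been dropped or split in the counting. *Cpr57A* shares 1488 bp of annotated exon with *Obp57d* on the same strand, so reads there may have been left uncounted as well.

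Other cuticle proteins of the same domain family, with the older names Lcp, Ccp84, Acp, Edg and Pcp together with *l(3)mbn* and resilin, were examined beside the Cpr genes. All 29 were in the table, none was expressed in AD, 3 were expressed in PH and 4 in LG, and their summed level was 1.69, 8.60 and 7.49 RPKM in the AD samples, 16.6, 19.1 and 20.2 RPKM in the PH samples and 23.7, 154 and 360 RPKM in the LG samples. The AD samples were lowest and LG replicates 2 and 3 highest, which is an order other than that of the summed Cpr genes. *Lcp4*, a larval cuticle protein, had 0 RPKM in all AD samples, 8.54, 8.03 and 11.8 RPKM in the PH samples and 3.39, 46.7 and 89.2 RPKM in the LG samples. *Lcp1* had 0 RPKM in all AD samples, 3.54, 2.73 and 4.39 RPKM in the PH samples and 2.2, 37.8 and 29.3 RPKM in the LG samples. Both Lcp genes were thus lower in LG replicate 1 than in any PH sample and higher in LG replicates 2 and 3.

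In the limma fit, 3 genes of this list were tested between AD and PH and all 3 were called lower in AD. These were *Lcp4* (log2 difference -3.37, adjusted p = 5.6e-06), *Lcp1* (-2.17, adjusted p = 7.9e-05) and *Lcp2* (-1.49, adjusted p = 7.0e-04). All 3 were at or near 0 RPKM in AD and could pass the filter only by their PH values. Their direction, and the list median of -2.17 against 0.05 over all genes tested, were thus set by the filter. The limma calls of *Lcp1* and *Lcp2* were lost with all 9 samples in 1 fit and with a pseudocount of 5 (adjusted p up to 0.0314 and 0.0701). Between AD and LG, limma called 3 of 6 lower in AD, *Lcp4* (-4.73, adjusted p = 0.0050), *Lcp1* (-3.96, adjusted p = 0.0060) and *Lcp65Ab2* (-3.78, adjusted p = 0.0056). These genes and *Lcp65Ab1* were at 0 RPKM in all AD samples and could pass the filter only by their LG values. Their direction was thus set by the filter, and the list median of -3.81 against 0.07 rests on it. Each of the 3 calls was kept in 5 of the 10 alternatives in which the gene was tested. It was lost with no filter, with a pseudocount of 5 and without AD replicate 1, 2 or 3. The adjusted p from limma rose up to 0.018, 0.0207 and 0.0233 for *Lcp4*, *Lcp1* and *Lcp65Ab2*. Between PH and LG, limma called 0 of 6, with 2 at an unadjusted p below 0.05 and a list median of -2.44 against 0.01. Those 2, *Lcp65Ab1* and *Lcp65Ab2*, passed the filter by their LG values alone. *Lcp1* and *Lcp2*, and *Lcp65Ab1* and *Lcp65Ab2*, are close copies that may share reads. *l(3)mbn*, first known from a mutant with malignant blood cells, had 0 RPKM in all AD samples, 0.136, 0 and 0 RPKM in the PH samples and 0, 0.711 and 3.96 RPKM in the LG samples.

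Tweedle proteins are another family of structural cuticle proteins, without the Rebers and Riddiford domain. Of 27 Tweedle genes, *TwdlE* was the only one expressed in a group. It had 0.984, 0.491 and 1.80 RPKM in the AD samples, 5.14, 4.86 and 3.67 RPKM in the PH samples and 0.373, 1.23 and 1.81 RPKM in the LG samples, and it was called lower in AD than in PH (-1.45, adjusted p = 0.0024 from limma). Among 13 obstructor and peritrophin-type chitin-binding genes, 2 were tested in each comparison, and *Gasp*, a chitin-binding protein of the tracheal tube, was called lower in PH than in LG (-2.02, adjusted p = 0.0080), with 0.267, 0.463 and 0 RPKM in the PH samples and 7.83, 1.96 and 3.76 RPKM in the LG samples. This call was kept in 1 of the 10 alternatives in which *Gasp* was tested (scaling to the recovered reads), with adjusted p-values of 0.00426 to 0.033 over them, and it was lost without PH replicate 1, 2 or 3. *Gasp* was below RPKM 1 in all PH samples and could pass the filter only by its LG values. Its direction was thus set by the filter. None of 10 zona pellucida genes of apical matrices reached the level needed for a test.

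Genes that make, modify or break down chitin were mostly low. The chitin synthase *kkv* had 0 RPKM in all AD samples, at most 0.064 RPKM in PH and 0.382, 0.637 and 1.22 RPKM in the LG samples. *mmy*, the enzyme that makes the activated sugar from which chitin and also glycans are built, was expressed throughout, with 37.1 ± 4.86 RPKM for AD, 31.4 ± 1.65 RPKM for PH and 24.6 ± 1.88 RPKM for LG (SD, n = 3 each). Of the 20 genes found, 4 were tested between AD and PH, and the chitinase *Cht2* was lower in AD (-2.69, adjusted p = 7.8e-05 from limma), with 0.436, 0.762 and 1.99 RPKM in the AD samples, 10.7, 12.1 and 12.4 RPKM in the PH samples and 4.03, 2.93 and 4.63 RPKM in the LG samples. Between PH and LG, limma called 2 of 6 higher in PH, *Cht2* (1.40, adjusted p = 0.0022) and *Cht11* (1.47, adjusted p = 0.0027). Each of the 2 calls was kept in 9 of 14 alternatives (adjusted p up to 0.0175 and 0.0154). Both were lost with a pseudocount of 5, with scaling to the recovered reads and without PH replicate 1, 2 or 3. Between AD and LG, limma called 0 of 7, with 5 at an unadjusted p below 0.05.

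Genes of cuticle tanning, which supply and convert the dopamine derivatives that harden and darken cuticle and of which some also act in melanization, differed in both directions. Of 6 genes tested between AD and PH, 3 were higher in AD, namely *b*, the enzyme that makes beta-alanine (4.54, adjusted p = 5.0e-07 from limma), *Dat*, which acetylates dopamine (2.33, adjusted p = 4.8e-05), and *yellow-f2* (2.0, adjusted p = 9.2e-04), and *yellow-f* was lower (-1.53, adjusted p = 9.0e-05). *b* had 25.1, 23.1 and 23.9 RPKM in the AD samples, 0.147, 0.085 and 0 RPKM in the PH samples and 0.235, 0 and 0.104 RPKM in the LG samples. The same 3 genes were higher in AD than in LG, with differences of 4.50, 1.62 and 2.1. *yellow-f*, which converts dopachrome in melanin synthesis, was higher in PH than in LG (3.04, adjusted p = 0.0078), with 77.0, 68.6 and 53.8 RPKM in the PH samples and 1.63, 17.7 and 9.77 RPKM in the LG samples. That call was kept in 7 of 14 alternatives, with adjusted p-values of 0.00115 to 0.0304, and was lost without PH replicate 1, 2 or 3 or without LG replicate 3. *ple*, the tyrosine hydroxylase at the head of the pathway, varied most within PH, with 44.4, 5.58 and 1.36 RPKM, against 1.31 to 1.56 RPKM in AD and 1.28 to 1.91 RPKM in LG. Over these 6 lists of cuticle and chitin genes, limma called 9 of 16 tested genes for AD against PH. It called 6 of 22 for AD against LG and 4 of 19 for PH against LG. The shares called over all genes tested were 37%, 30.4% and 14.2%. As with the Cpr genes, a gene near 0 in 1 group could be tested only if above RPKM 1 in all samples of the other. With 1 replicate left out, 5 to 6, 1 to 4 and 0 to 7 genes of these lists were called in the 3 comparisons. The 0 came without PH replicate 1, 2 or 3, with 9 genes at an unadjusted p below 0.05 each time.

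Markers of tissues that make cuticle or lie close to the dissected cells were measured in the same samples. Of 10 epidermal and epithelial genes, 7 were expressed in AD, 6 in PH and 7 in LG, with summed levels of 192 to 208 RPKM in AD, 101 to 105 RPKM in PH and 78.6 to 82.1 RPKM in LG, and *grh*, an epidermal transcription factor, peaked at 1.08 RPKM among AD, 0.336 RPKM among PH and 1.24 RPKM among LG samples. Tracheal genes summed to 1.74 to 4.95 RPKM in AD, 1.88 to 4.33 RPKM in PH and 6.95 to 13.0 RPKM in LG, with 2 of 6, *serp* and *verm*, expressed in LG alone. Imaginal disc genes summed to 35.2 to 41.1 RPKM in AD, 6.16 to 12.5 RPKM in PH and 8.47 to 10.7 RPKM in LG. Larval fat body genes, all 7 of them expressed in PH, summed to 32.3 to 36.7 RPKM in AD, 1434 to 2002 RPKM in PH and 111 to 181 RPKM in LG. The order of groups in this sum was shared with *Cpr49Ac* and *Cpr66Cb*, but not by every gene of the list. In AD, limma called 6 of 7 tested genes lower than in PH and 5 of 6 lower than in LG. The other, *Lpin*, was called higher in AD both times (log2 differences 1.79 and 2.0). Over all genes tested, 13.9% were called lower in AD than in PH and 10.4% lower than in LG. *Fbp1* and *Lsp1alpha* in both comparisons, and *Lsp2* against PH, passed the filter only by their larval values. The direction of these calls was thus set by the filter. Adult fat body genes summed to 7886 to 12431 RPKM in AD, against 2.87 to 8.24 RPKM in PH and 0 to 31.2 RPKM in LG. Muscle genes summed to 1123 to 1156 RPKM in AD, 66.6 to 110 RPKM in PH and 399 to 519 RPKM in LG. Genes of the heart and pericardial cells, next to which the lymph gland lies, summed to 61.1 to 70.4 RPKM in AD, 121 to 143 RPKM in PH and 466 to 1043 RPKM in LG. That list includes *Ance*, which the paper uses as a label of blood cell progenitors in the lymph gland. The log2 difference of *Ance* was -4.17 for AD against LG and -2.71 for PH against LG. The LG sum is thus not a measure of heart and pericardial cells alone. The part of the tissues named above in the levels of the Cpr genes was not tested.

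**Figure D5:**
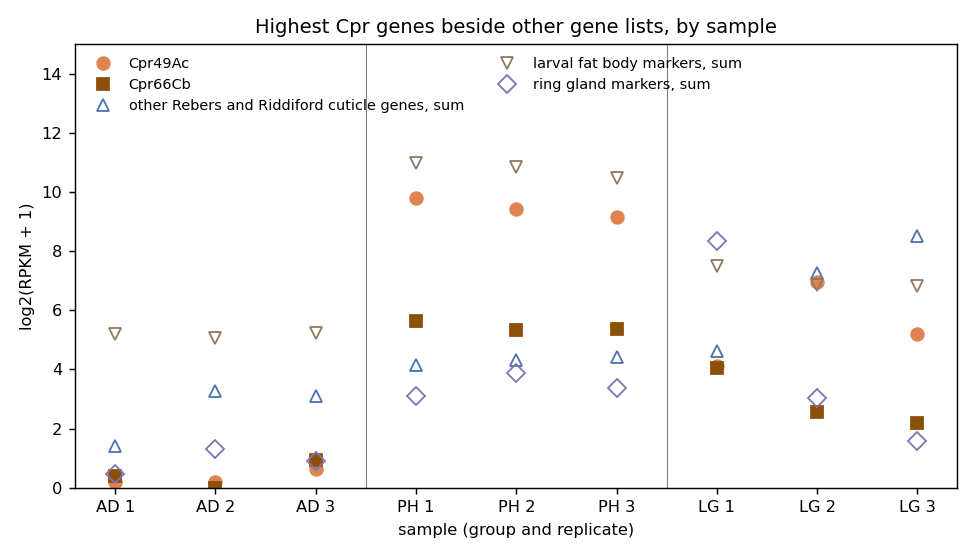
Level of *Cpr49Ac* and *Cpr66Cb* in each sample beside the summed levels of the other Rebers and Riddiford cuticle genes, the larval fat body markers and the ring gland markers, all as log2(RPKM + 1). *Cpr49Ac*, *Cpr66Cb* and the fat body sum are highest in PH, the other cuticle genes are highest in LG replicates 2 and 3, and the ring gland sum stands out in LG replicate 1 (322 RPKM).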

How the data were processed

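RNA sequencing values of AD (adult hemocytes), PH (larval peripheral hemocytes) and LG (lymph glands), with 3 biological replicates each, were used as deposited. The deposited values are RPKM, which the authors calculated with Cufflinks after trimming with Trimmomatic, aligning to dm6 with HISAT2 and counting with HTSeq. The submitters' processing notes name Trimmomatic 0.32, HISAT2 2.1.0, TopHat, HTSeq 0.5.4p5, Cufflinks 2.2.1 and DESeq2 1.2.8 and the builds BDGP5 and dm6. The RNA kit and the sequencer differ between the deposited descriptions and the paper.

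Exon lengths and coordinates came from the Ensembl annotation of BDGP6.54 (17216 genes matched by identifier, 85 by symbol, 189 unmatched). Multiplied by exon length, 97.8 to 97.9% of the values of a sample were whole reads within 0.02. Recovered reads are those on matched genes, not all mapped reads. The paper reports more mapped reads for every sample than were recovered here, and the source of that gap was not tested. They were used for depth, limits (3 reads in a library), exact 95% intervals of ratios of read rates, and 1 alternative scaling. Limits and read rates were set per library total implied by the RPKM values, which differed from the recovered reads. In PH replicate 3 that total was 3849898, against 4999411 recovered reads.

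RPKM values cannot enter DESeq2, which the authors used on counts, so limma 3.58.1 (R 4.3.3) was run for each pair of groups (lmFit, then eBayes with trend) with log2(RPKM + 1) as input, over genes that exceeded RPKM 1 in 3 or more of the 6 samples, two-sided, with Benjamini-Hochberg adjustment over all of them. The code was tested on simulated data. The p-values measure the spread between these pooled replicates. Python 3.11.15, pandas 2.3.3, numpy 2.4.6, scipy 1.17.1 and matplotlib 3.10.9 were used for counts and plots.

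The members, the gene lists and the tests were chosen with earlier results of these data known. Named members are those expressed or called in a group, the 5 highest by mean in each group, and genes whose place in a band is described. Other members named were chosen after their values were seen. Genes of the lists are named where called, expressed or needed to describe the list. Listed symbols that were not matched (*TwdlA*, an older name of *Tb*, *TwdlDuo*, *Chs2*, *Lac2*, *stw*, *Bkh*, *dys*, *Aug21*, *wupA*, *bent* and *ap*) were not analysed here. No sequence was used. The settings varied were the pseudocount (0.1 and 5), the filter (none, or RPKM 5), quantile normalization, scaling to the recovered reads, all 9 samples in a single fit, a replicate block, leaving out each replicate, and the threshold of expression.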

Additional observations from a re-analysis of the deposited data

How the results depend on the processing

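For the 7 expressed members, 16 log2 differences, 14 of them called, each had 14 alternatives. Of these 224 values, 176 could be recomputed and 48 could not, since the member did not pass the filter. Among the 176, 0 changed direction, 25 lost their call and 2 gained it, and 43 of the 48 belonged to called differences. The count of Cpr genes called between AD and PH (6) was 3 with a filter at RPKM 5 and 2 to 4 with a replicate left out. The count between AD and LG (6) was 3 with a pseudocount of 5, 2 with a filter at RPKM 5 and 1 to 3 with a replicate left out. The count between PH and LG (2) was 1 with no filter and 0 to 2 with a replicate left out. For the other cuticle and chitin genes, the count between AD and PH (9 of 16 tested) was 5 with a pseudocount of 5. It was 5 with a filter at RPKM 5 and 5 to 6 with a replicate left out. The count between AD and LG (6 of 22 tested) was 1 with a pseudocount of 5 and 3 with no filter. It was 2 with a filter at RPKM 5 and 1 to 4 with a replicate left out. The count between PH and LG (4 of 19 tested) was 1 with a pseudocount of 5, 2 with no filter and 2 with quantile normalization. It was 7 with all 9 samples in 1 fit and 0 to 7 with a replicate left out. Some of these calls were lost because the gene was no longer tested. For PH against LG, 3 Cpr genes were tested with and without any PH replicate, so the fall to 0 calls there did not come from the filter. The cause of the other changes was not tested. Expressed members in AD (4) numbered 7 at RPKM above 0.5 and 1 at RPKM above 5, and those in LG (3) numbered 1 at RPKM above 5. The mean summed RPKM fell to 29.4 in AD without *Cpr49Ab*, and to 49.4 in PH and 31.6 in LG without *Cpr49Ac*. Over all genes, quantile normalization moved the median difference by -0.24 for AD against PH and by -0.24 for AD against LG, and scaling to the recovered reads moved it by 0.09, -0.22 and -0.32 in the 3 comparisons. The genes called higher and lower in AD were 1773 and 1071 against PH, or 1458 and 1425 under quantile normalization, and 1553 and 805 against LG, or 1260 and 1205 under quantile normalization and 1285 and 1168 under recovered reads. Those higher and lower in PH against LG were 541 and 466, or 320 and 732 under recovered reads. Deviations of same-numbered samples correlated at -0.13 to 0.06, so the numbers were not taken to pair the samples. With a replicate block, 6, 6 and 2 Cpr genes and 9, 7 and 3 other cuticle and chitin genes were called in the same order of comparisons. For AD against LG, the replicate block gave 1376 higher and 655 lower genes over all genes. Depth limits the low members, for which 1 read decides whether a library is above 0.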
